A study of Homo sapiens with 32 samples.

Results

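The genes described here are the *ZNF* genes that LNCaP cells express: every gene whose symbol is ZNF followed by a number and whose mean over the 4 libraries of cells in charcoal-stripped serum (CSS) without a growth factor was at least 5 TPM (a level scaled to transcript length and library total). The members, chosen by these CSS levels, numbered 321 of the 551 *ZNF* genes in the table of 25498 genes, and all 321 were among the 16995 genes tested. Another 195 *ZNF* genes were tested but lay below the TPM limit. The symbols included 3 antisense transcripts (*ZNF667-AS1*, *ZNF674-AS1*, and *ZNF790-AS1*) and 5 that end in P, the usual mark of a pseudogene.

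LNCaP is a prostate cancer cell line, derived from a lymph node metastasis, that expresses and depends on the androgen receptor. Strand-specific libraries of polyadenylated RNA came from 8 groups of 4 libraries, made in 2 batches of 2 libraries per group, and each library held between 63822654 and 92401724 expected counts (median 77866194). Cells of the FBS group were grown with fetal bovine serum. All other groups were placed in medium with charcoal-stripped serum, which lacks most steroid hormones, a day before collection. The CSS group received nothing more, and the remaining 6 groups received 100 ng/mL EGF or 100 ng/mL NRG-1 for 5 minutes, 1 hour, or 4 hours. EGF binds the receptor EGFR, and NRG-1 binds HER3 and HER4. The luminal markers fixed for these cells were present in every library (*KLK3* at 143 TPM or more and *KRT8* at 306 TPM or more), whereas *PTPRC*, *CD3E*, *PECAM1*, *KRT5*, *TP63*, and *COL1A2* did not exceed 0.04 TPM in any. Of the other markers fixed for other cell types, *LYZ* reached 0.15 TPM and *DCN* 0.03 TPM. Low levels of *COL1A1* (1.36 to 5.0 TPM) and *VWF* (0.7 to 3.1 TPM) were present in every library. All libraries are from 1 cell line, nothing states that replicates came from separate cultures, and P values therefore measure the spread between these libraries. In bulk RNA, fewer cells and less RNA per cell cannot be told apart.

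C2H2 zinc fingers are small folds held together by a zinc ion, each of which contacts a few bases of DNA, and proteins with a row of fingers can recognise long sites. Many human *ZNF* proteins also carry a KRAB box at the amino end, which recruits the corepressor TRIM28 and, through it, enzymes that lay down repressive histone marks. A large share of these KRAB genes lie in clusters on chromosome 19, and many of the proteins bind transposable elements. Growth factor receptors act within minutes through ERK on factors such as SRF and its ETS-family partners, which bind CArG boxes and ETS sites in promoters of early genes.

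Among the members, 311 could be matched to a coding sequence, and 190 of these contained a stretch resembling the KRAB A box. The number of C2H2 fingers reached 36, with a median of 12 in KRAB-like members and 7 in the others, and 264 members had at least 5 fingers. Of the 121 matched members with no KRAB-like box, 82 had at least 5 fingers, 36 had 1 to 4, and 3 had no finger of the pattern searched. The other 10 members had no matched coding sequence. Promoters were found for 276 members, and 133 of these (48.2%) lay on chromosome 19, where 5.53% of all 27305 promoters in the RefSeq table lie. The chromosome 19 share was 63.2% for 171 KRAB-like members (108 genes) and 22.5% for 102 members without the box (23 genes).

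Promoters are shown for genes on which the results below turn, as the 150 bases before the start site in GRCh38.p14 (RefSeq), read 5′ to 3′ on the gene's strand, with matched motifs in capitals. The motifs were the cAMP response element (TGACGTCA), the AP-1 site (TGACTCA), an ETS site (CCGGAAGT), the CCAAT box (CCAAT), the SP site (GGGCGG), and the CArG box, each on both strands. *ZNF644*, *ZNF93*, and *ZNF548* had the largest rises at 1 hour of EGF. Their windows are chr1:91022036-91022185 (- strand), chr19:19900796-19900945 (+ strand), and chr19:57389704-57389853 (+ strand).
ZNF644: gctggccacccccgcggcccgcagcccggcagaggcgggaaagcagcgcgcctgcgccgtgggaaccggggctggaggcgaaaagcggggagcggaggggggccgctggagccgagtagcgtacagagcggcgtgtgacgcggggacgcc
ZNF93: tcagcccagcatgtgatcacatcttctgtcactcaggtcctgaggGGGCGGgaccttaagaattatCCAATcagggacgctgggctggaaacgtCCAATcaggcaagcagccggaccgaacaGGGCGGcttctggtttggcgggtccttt
ZNF548: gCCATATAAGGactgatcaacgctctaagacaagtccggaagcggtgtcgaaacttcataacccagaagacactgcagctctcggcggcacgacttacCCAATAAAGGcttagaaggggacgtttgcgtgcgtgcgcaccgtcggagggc
None of these motifs was found in the *ZNF644* window. The *ZNF93* window held a pair of SP sites and a pair of CCAAT boxes, and that of *ZNF548* held a pair of CArG boxes, the second of which overlaps a CCAAT box.

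*ZNF606* fell at 1 hour of either ligand, *ZNF823* fell at 1 hour of EGF, and *ZNF593* rose at 1 and 4 hours of either ligand. Their windows are chr19:58002821-58002970 (- strand), chr19:11738947-11739096 (- strand), and chr1:26169758-26169907 (+ strand).
ZNF606: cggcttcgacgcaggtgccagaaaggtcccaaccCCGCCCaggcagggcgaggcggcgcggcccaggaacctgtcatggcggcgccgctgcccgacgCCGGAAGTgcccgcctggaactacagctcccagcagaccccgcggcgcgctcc
ZNF823: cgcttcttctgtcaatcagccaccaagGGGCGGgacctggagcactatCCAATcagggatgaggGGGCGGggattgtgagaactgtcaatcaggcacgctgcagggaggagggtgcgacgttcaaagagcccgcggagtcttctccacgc
ZNF593: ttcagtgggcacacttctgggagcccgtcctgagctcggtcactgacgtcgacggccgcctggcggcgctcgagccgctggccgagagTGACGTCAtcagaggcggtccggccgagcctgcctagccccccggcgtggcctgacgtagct
The *ZNF606* window held an SP site on the opposite strand and an ETS site, the *ZNF823* window a pair of SP sites around a CCAAT box, and the *ZNF593* window a cAMP response element. Over the whole 250 bases before the start, the ETS site was present in 13.0% of the 276 member promoters and in 3.64% of all promoters, the CCAAT box in 48.2% against 33.0%, the SP site in 61.6% against 42.3%, and the cAMP response element in 3.99% (11 genes) against 1.77%. A CArG box was present in 1.09% of member promoters (*ZNF548*, *ZNF562*, and *ZNF687*) and in 1.14% of all promoters. AP-1 sites were in 2.54% and 4.16%. A match describes letters in the window and does not show that a factor binds there.

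Levels in CSS ranged from 5.04 to 212 TPM with a median of 11.6 TPM, below the median of 26.2 TPM of the 10189 tested genes that met the same limit. Of the members, 185 reached 10 TPM and 64 reached 20 TPM. The median was 9.81 TPM for KRAB-like members and 14.4 TPM for those without the box. The highest levels per transcript length were those of *ZNF207*, a spindle protein that binds BUB3, at 212 TPM, *ZNF664* at 156 TPM, and *ZNF32* and *ZNF511*, both at 110 TPM. *ZNF358* followed at 76.8 TPM. Just inside the limit were *ZNF749* at 5.04 TPM, *ZNF573* at 5.05 TPM, and *ZNF10* at 5.13 TPM, and just outside it were *ZNF229* at 4.96 TPM, *ZNF17* at 4.94 TPM, and *ZNF596* at 4.93 TPM. These are the levels the members were selected on, and they are given without a test. Together the members took 1.02% of all counts in CSS, 1.02% at 5 minutes of either ligand, 1.01% at 1 hour of EGF, 0.981% at 1 hour of NRG-1, 0.924% and 0.925% at 4 hours of EGF and NRG-1, and 0.954% in FBS. Their summed TPM was 5184 ± 198 in CSS, 5330 ± 171 at 1 hour of EGF, and 5051 ± 295 at 1 hour of NRG-1 (SD, n = 4). It was 4919 ± 170 and 4816 ± 306 at 4 hours of EGF and NRG-1. The direction at 1 hour of EGF thus differed between the measures, and neither was tested.

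No member passed the test at 5 minutes. The edgeR quasi-likelihood test called 0 members higher or lower with either ligand (adjusted P below 0.05), where 0.00588% of all genes were called higher with EGF and 0% with NRG-1, and the Wald test of DESeq2 also called 0. At an unadjusted P below 0.05 there were 2 members with EGF and 3 with NRG-1. The fitted changes of all members lay between −0.23 (*ZNF767P*) and 0.14 (*ZNF808*) on the log2 scale with EGF, and between −0.23 (*ZNF432*) and 0.17 (*ZNF775*) with NRG-1. Because the CSS libraries chose the members, the 5-minute libraries, which the rule did not read, served as a second reference below.

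At 1 hour a larger share of members than of all genes had fallen. With EGF, 70 members (21.8%) were lower than in CSS, where 3.51% of all genes were, and 34 members (10.6%) were higher, where 6% of all genes were. Among all tested genes with at least 5 TPM in CSS the shares were 3.57% lower and 7.39% higher. Against the 5-minute EGF libraries, 68 members were lower (3.59% of all genes) and 34 higher (5.48% of all genes). The changes were small: the median member changed by −0.06 on the log2 scale against CSS, that of all genes by −0.01, and 20 members passed the test with a change beyond 0.5. In batch 1 alone, 50 members were lower (2.29% of all genes) and 39 higher (5.82%), and in batch 2 alone 14 were lower (0.591%) and 9 higher (2.37%). Batch 1 alone against its own 5-minute libraries gave 35 lower (2.16% of all genes) and 43 higher (5.54%), so that the higher members outnumbered the lower ones there. On log2(TPM + 1) with limma, 40 members were lower and 31 higher against CSS (2.51% and 5.07% of all genes) and again against 5 minutes (2.32% and 4.51%).

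**Figure D1:**
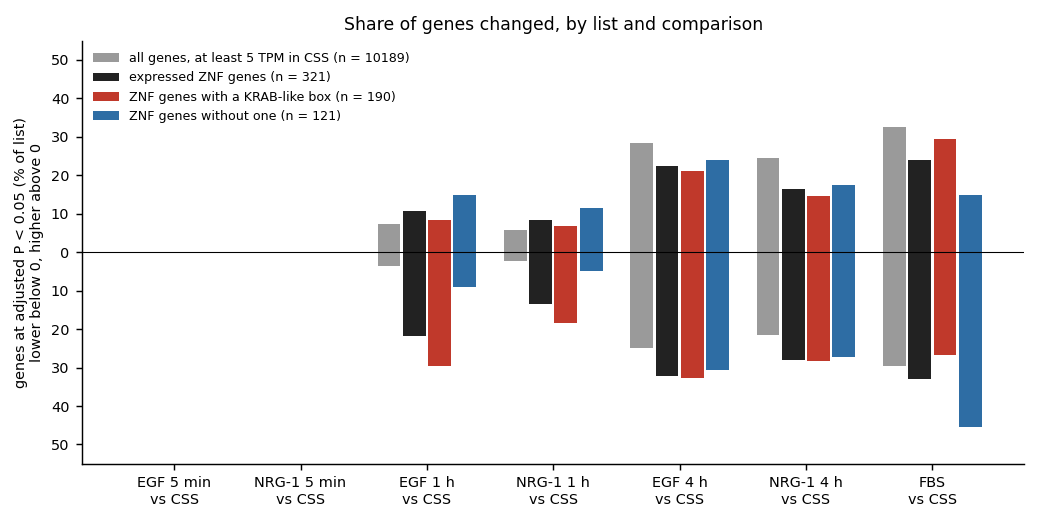
Share of genes in each list with an adjusted P below 0.05 in the edgeR fit, in percent of the list, for each group against CSS; bars above 0 are genes higher than in CSS and bars below 0 genes lower. At 1 hour of EGF the bars below 0 reach 3.57% for all genes with at least 5 TPM, 21.8% for the 321 *ZNF* genes, 29.5% for those with a KRAB-like box, and 9.09% for those without.

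With NRG-1 at 1 hour, 43 members (13.4%) were lower than in CSS, where 2.28% of all genes were, and 27 (8.41%) were higher, where 4.45% of all genes were. Among genes with at least 5 TPM in CSS, 2.17% were lower and 5.67% higher. With the replicate number as a block in the edgeR fit, the counts were 77 lower (5.13% of all genes) and 57 higher (7.13%). Against the 5-minute NRG-1 libraries, 40 were lower (2.22% of all genes) and 27 higher (4.06%), and the block gave 70 lower (6.53%) and 58 higher (7.23%). Batch 1 alone gave 24 lower (1.49%) and 34 higher (4.16%) against CSS. Batch 2 alone gave 2 lower (0.265%) and 2 higher (1.41%). In batch 1 the members higher than in CSS outnumbered those lower, and in batch 2 the calls were too few to set against the other genes. On log2(TPM + 1) with limma the counts against 5 minutes were 33 lower and 11 higher (1.98% and 2.07% of all genes).

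The members that fell at 1 hour were mostly KRAB-like. With EGF, 56 of 190 KRAB-like members (29.5%) were lower and 16 (8.42%) higher than in CSS, whereas 11 of 121 members without the box (9.09%) were lower and 18 (14.9%) higher. Their median changes were −0.12 and 0.01 on the log2 scale. Against 5 minutes of EGF, the counts were 53 lower and 17 higher for KRAB-like members (median −0.10) and 13 lower and 17 higher for the others (median −0.02). In batch 1 alone 40 KRAB-like members and 8 of the others were lower than in CSS with EGF, and in batch 2 alone 14 and 0. With NRG-1 at 1 hour, 35 KRAB-like members (18.4%) were lower and 13 (6.84%) higher than in CSS, against 6 (4.96%) and 14 (11.6%) of the others. The block gave 60 lower KRAB-like members with NRG-1. Against 5 minutes of NRG-1, 30 KRAB-like members were lower and 15 higher, and 10 of the others were lower and 12 higher, with medians of −0.02 and −0.01. Batch 1 alone gave 18 lower and 18 higher KRAB-like members with NRG-1 against CSS. These are counts within lists, and the difference between the lists was not tested.

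The libraries overlapped between groups. Relative to the CSS mean of the same batch, the median KRAB-like member changed by −0.13, −0.07, −0.19, and −0.13 on the log2 scale in EGF 1-hour replicates 1 to 4. In the EGF 5-minute libraries it was −0.08, 0.01, −0.06, and 0.09, so that replicate 2 at 1 hour lay within the 5-minute range and the other 3 below it. Each 1-hour EGF library was below the 5-minute EGF library of the same number. With NRG-1 at 1 hour the values were −0.07, −0.10, −0.11, and 0.02, and replicate 4 lay above 0. In the NRG-1 5-minute libraries they were −0.0647, 0.0008, −0.0504, and −0.0037. Replicates 2 and 3 of NRG-1 were thus lower at 1 hour, replicate 1 was nearly unchanged (−0.0654), and replicate 4 was higher. Members without the box had medians between −0.01 and 0.06 in the EGF 1-hour libraries and between −0.03 and 0.04 in those of NRG-1. The KRAB-like median was the lower of the pair in all 4 EGF libraries and in 3 of 4 NRG-1 libraries, the exception being replicate 4. In batch 2, replicate 4 of every group had a higher KRAB-like median and a lower median for the others than replicate 3. The contrast between the 2 lists thus followed the replicate number there, and the part of this in the counts was not tested. In CSS the KRAB-like medians of replicates 3 and 4 were −0.0387 and 0.0387, so that replicate 4 at 1 hour of NRG-1 lay below CSS replicate 4. Leaving out 1 library at a time gave between 45 and 58 lower KRAB-like members with EGF and between 26 and 32 with NRG-1.

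**Figure D2:**
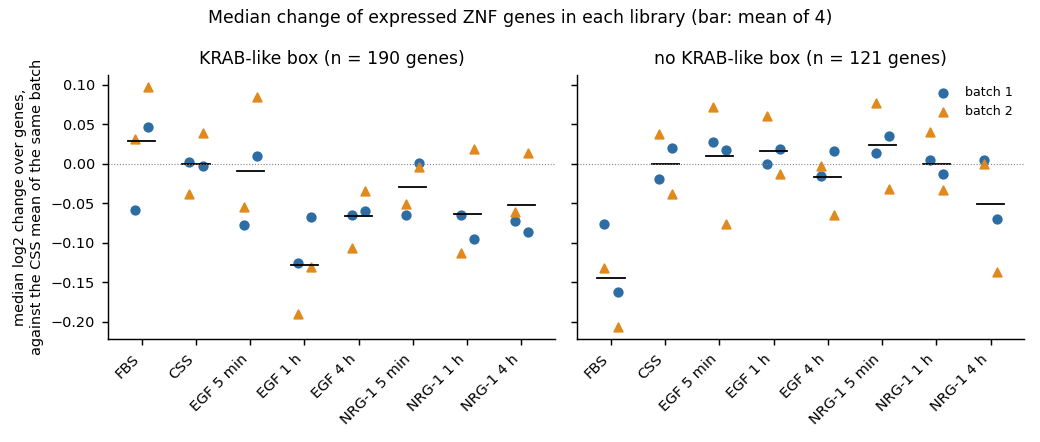
Median log2 change over 190 KRAB-like members (left) and 121 members without the box (right) in each library, against the mean of the CSS libraries of the same batch; circles are batch 1, triangles batch 2, and bars the mean of 4 libraries. The 4 EGF 1-hour libraries lie between −0.19 and −0.07 for KRAB-like members and between −0.01 and 0.06 for the others.

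Among the members that fell, *ZNF606*, which has a KRAB-like box and 13 fingers, had normalized counts (CPM, counts scaled to library size) of 28.1, 28.5, 26.9, and 28.7 in CSS and 17.7, 16.9, 17.6, and 17.4 at 1 hour of EGF. The groups did not overlap, and the log2 fold change was −0.69 (SE 0.05, edgeR adjusted P = 1.79e-11). At 1 hour of NRG-1 the values were 19.3, 21.2, 19.1, and 22.8 CPM, all below CSS and all above the EGF libraries (log2 fold change −0.45 against CSS, SE 0.05, edgeR adjusted P = 2.18e-07). By 4 hours they were 24.7 to 25.6 CPM with EGF, between the 1-hour and CSS values.

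*ZNF823*, a KRAB-like member with 15 fingers, had 10.5, 9.93, 9.13, and 10.4 CPM in CSS and 6.91, 6.03, 4.80, and 5.48 CPM at 1 hour of EGF. Every EGF library was below every CSS library (log2 fold change −0.78, SE 0.16, edgeR adjusted P = 0.00094). In FBS it stood higher, at 14.8 to 20.7 CPM. *ZNF658* (KRAB-like, 19 fingers) fell from 15.0 ± 1.25 to 8.82 ± 0.91 CPM (SD, n = 4) with a log2 fold change of −0.77. Its near copy *ZNF658B* shares sequence with it, and reads divided between them by the authors' counting are uncertain. *ZNF775*, which has 11 fingers and no KRAB-like box, fell from 7.73 ± 1.27 to 4.65 ± 0.92 CPM with EGF and to 5.09 ± 0.99 CPM with NRG-1. Its log2 fold changes were −0.73 and −0.61. The pseudogene *ZNF767P* was among the largest falls with NRG-1, at −0.46 (adjusted P = 0.043 in edgeR), and lost the call without any 1 of the CSS libraries or without NRG-1 replicate 2, 3, or 4.

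The rises at 1 hour were fewer and included the largest changes of the class. *ZNF644* encodes a partner of the histone methyltransferases EHMT1 and EHMT2. It had 67.3, 69.4, 73.2, and 72.1 CPM in CSS and 179, 188, 174, and 182 CPM at 1 hour of EGF. The EGF libraries stood far above CSS, without overlap (log2 fold change 1.36, SE 0.06, edgeR adjusted P = 4.46e-17). With NRG-1 the 1-hour values were 122, 104, 129, and 143 CPM, between CSS and EGF in every library (log2 fold change 0.82, SE 0.06). Against 5 minutes of the same ligand the changes were 1.40 and 0.87.

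*ZNF93* encodes a KRAB protein that represses primate LINE-1 elements. It had 8.48, 8.49, 8.29, and 8.78 CPM in CSS and 25.3, 25.1, 13.6, and 16.0 CPM at 1 hour of EGF. All EGF values were above CSS, with batch 1 above batch 2 (log2 fold change 1.21, SE 0.14, edgeR adjusted P = 1.24e-07). At 1 hour of NRG-1 it stood at 15.2 ± 2.27 CPM (log2 fold change 0.83). In FBS, without added ligand, it stood at 19.4, 21.3, 19.1, and 19.8 CPM (log2 fold change 1.22 against CSS).

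*ZNF548*, the KRAB-like member with a pair of CArG boxes in the window shown, had 15.0, 15.2, 15.9, and 15.8 CPM in CSS and 38.3, 39.9, 26.0, and 27.4 CPM at 1 hour of EGF. Again all were above CSS and batch 1 was above batch 2 (log2 fold change 1.08, SE 0.10, edgeR adjusted P = 1.1e-09). The NRG-1 values were 24.7, 22.7, 22.0, and 22.4 CPM (log2 fold change 0.57, SE 0.10). These 3 genes were the only members that both passed the test and more than doubled with EGF at 1 hour, where 1.72% of all genes, and 0.883% of those with at least 5 TPM in CSS, passed both limits in either direction. With NRG-1 at 1 hour no member did, where 0.989% of all genes and 0.54% of those with at least 5 TPM did.

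*ZNF267* (KRAB-like, 14 fingers) was the next riser with EGF, from 13.8 ± 0.96 to 24.0 ± 4.40 CPM (log2 fold change 0.80). *ZNF703*, a growth-promoting gene of luminal breast cancer, rose with NRG-1 from 16.8 ± 1.11 to 27.4 ± 2.72 CPM (log2 fold change 0.71) and with EGF by 0.62. *ZNF593*, whose protein acts in assembly of the large ribosomal subunit, rose by 0.63 with NRG-1 (adjusted P = 0.005 in edgeR). Of the 30 members with promoters that rose at 1 hour of EGF, 2 (6.67%) held a CArG box and 3 (10%) a cAMP response element. Of the 60 that fell, 0 held either. The ETS site was in 20% of the risen and 13.3% of the fallen members, and the SP site in 66.7% and 55%. The CCAAT box was in 53.3% of each list, and the AP-1 site in 0% and 1.67%. Several of these counts are very small, and no difference between the lists was tested. Those lists lay on chromosome 19 for 46.7% and 60% of their genes.

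By 4 hours *ZNF644*, *ZNF93*, and *ZNF548* were below CSS with both ligands. *ZNF644* stood at 57.0, 57.3, 61.0, and 61.1 CPM at 4 hours of EGF and at 58.9, 56.6, 61.0, and 61.3 CPM with NRG-1. All 8 values were below the lowest CSS value (log2 fold change −0.25 for each ligand, adjusted P = 0.00052 and 0.00094 in edgeR). *ZNF93* changed by −0.62 and −0.38 and *ZNF548* by −0.36 and −0.33 against CSS. Against 5 minutes, *ZNF93* and *ZNF548* passed the test with EGF (−0.57 and −0.25) but not with NRG-1 (−0.30 and −0.21, adjusted P = 0.091 for each in edgeR). The call of *ZNF93* at 4 hours of NRG-1 against CSS (adjusted P = 0.033 in edgeR) was lost without CSS replicate 3 or 4, or without NRG-1 replicate 1, 2, or 3. A similar course was that of *ZNF281*, a GC-box binding factor of stem cells, which rose by 0.54 at 1 hour of EGF and was 0.24 lower at 4 hours, from 31.1 ± 1.62 to 45.3 ± 1.90 and then 26.4 ± 0.91 CPM.

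**Figure D3:**
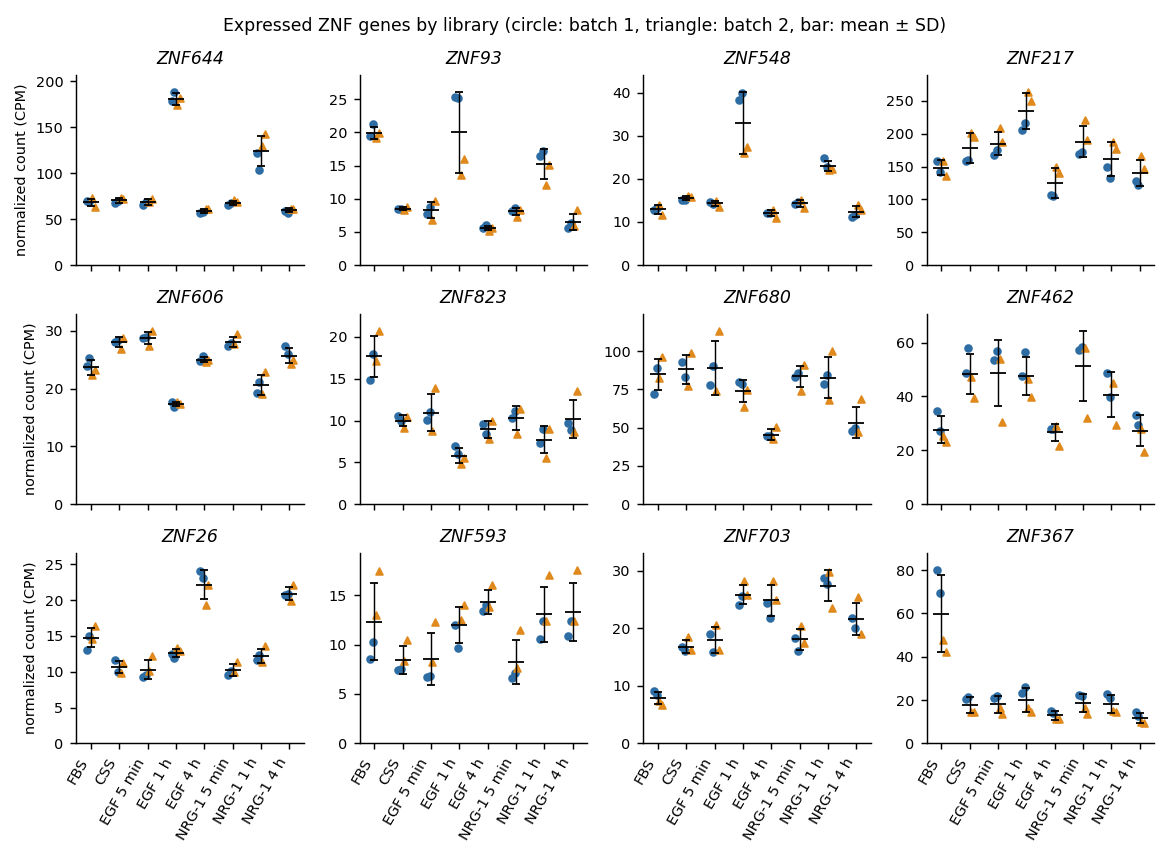
Normalized counts (CPM) of 12 expressed *ZNF* genes in each of the 32 libraries by group, with axes from 0; circles are batch 1, triangles batch 2, and bars the mean ± SD of 4 libraries. *ZNF644* stands at 174 to 188 CPM at 1 hour of EGF and at 57.0 to 61.1 CPM at 4 hours, and *ZNF26* at 19.4 to 24.1 CPM at 4 hours of EGF against 9.87 to 11.6 CPM in CSS.

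At 4 hours more members differed from CSS, but so did the rest of the genes. With EGF, 103 members (32.1%) were lower and 72 (22.4%) higher, where 24.6% of all genes were lower and 24.6% higher. With NRG-1, 90 (28.0%) were lower and 53 (16.5%) higher, where 21% of all genes were lower and 21.6% higher. Among genes with at least 5 TPM in CSS, 24.8% were lower and 28.5% higher with EGF, and 21.6% and 24.5% with NRG-1. In this fit the members' share of higher calls was below that of all genes and their share of lower calls above it. Against 5 minutes the counts were 98 lower and 67 higher for EGF (24.6% and 24.1% of all genes) and 88 lower and 60 higher for NRG-1 (21.3% and 21.6%). On log2(TPM + 1) with limma the split against CSS was 105 lower and 38 higher for EGF (26.2% and 17.7% of all genes) and 102 lower and 21 higher for NRG-1 (23.7% and 14% of all genes). Against 5 minutes it was 104 and 38 for EGF (26.4% and 16.9%) and 113 and 22 for NRG-1 (28.1% and 12.9%), and all genes thus also had more lower than higher calls on this scale. Batch 1 alone gave 95 lower and 82 higher with EGF (24.4% and 26% of all genes) and 90 and 52 with NRG-1 (21.1% and 23.3%). Batch 2 alone gave 27 lower and 27 higher with EGF (8.73% and 13.2%) and 15 and 12 with NRG-1 (6.27% and 9.11%). In batch 2 alone the members' shares of lower calls, 8.41% with EGF and 4.67% with NRG-1, were not above those of all genes.

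Counts by the KRAB-like box at 4 hours were as follows, without a test between the lists. With EGF, 62 KRAB-like members (32.6%) were lower and 40 (21.1%) higher, and 37 of the others (30.6%) were lower and 29 (24.0%) higher. With NRG-1 the counts were 54 (28.4%) and 28 (14.7%) against 33 (27.3%) and 21 (17.4%). Compared directly with 1 hour of EGF, 57 KRAB-like members (30%) were higher at 4 hours and 37 (19.5%) lower, whereas 21 of the others (17.4%) were higher and 27 (22.3%) lower. Over all members, 82 were higher and 67 lower at 4 hours than at 1 hour of EGF (22.5% and 21.5% of all genes), and 55 higher and 66 lower for NRG-1 (19% and 18.5% of all genes). On log2(TPM + 1) with limma the EGF split turned, to 44 higher and 82 lower (14.1% and 25.1% of all genes).

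The middle 90% of members changed between −0.57 and 0.47 on the log2 scale at 4 hours of EGF, and that of all genes with at least 5 TPM in CSS between −0.58 and 0.70. *ZNF26* was the only member that passed the test and more than doubled at 4 hours of EGF, where 9.56% of all genes and 3.2% of those with at least 5 TPM in CSS passed both limits. With NRG-1 there was no such member, where 7.41% and 2.05% passed. *ZNF26*, a KRAB-like member with 13 fingers, had 11.6, 10.0, 9.87, and 11.2 CPM in CSS, 24.1, 23.1, 19.4, and 22.1 CPM at 4 hours of EGF, and 20.7, 20.8, 19.9, and 22.1 CPM with NRG-1. Both treated groups lay above CSS without overlap (log2 fold changes of 1.06 for EGF and 0.97 for NRG-1, edgeR adjusted P = 1.36e-11 and 1.23e-10). At 1 hour of EGF it was 12.0 to 13.3 CPM, so that most of the rise came after 1 hour.

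Other members that rose by 4 hours of EGF were *ZNF593* from 8.43 ± 1.40 to 14.3 ± 1.20 CPM (log2 fold change 0.78) and *ZNF584* from 14.7 ± 0.39 to 23.6 ± 0.72 CPM (0.68). *ZNF239* rose by 0.66, the antisense transcript *ZNF674-AS1* by 0.63, *ZNF316* by 0.62, *ZNF410* by 0.59, and *ZNF710* by 0.57. *ZNF410* encodes an activator of *CHD4*, a gene for a chromatin remodeler. With NRG-1 the largest rises after *ZNF26* were those of *ZNF410* (0.66), *ZNF593* (0.65), and the pseudogene *ZNF542P* (0.62). Of 57 members with promoters that rose at 4 hours of EGF, 6 (10.5%) held a cAMP response element, and of 88 that fell 2 (2.27%) did. In the same order, the CArG box was in 1.75% and 2.27%, the AP-1 site in 1.75% and 5.68%, and the CCAAT box in 43.9% and 60.2%. The ETS site was in 19.3% and 12.5%, and the SP site in 66.7% and 52.3%. These differences were not tested either.

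*ZNF680*, a KRAB-like member with 12 fingers, had the largest fall at 4 hours of EGF. It had 93.0, 83.2, 77.2, and 98.8 CPM in CSS and 44.5, 44.3, 42.3, and 50.4 CPM at 4 hours of EGF. The groups were far apart (log2 fold change −0.96, SE 0.13, edgeR adjusted P = 5.88e-07). With NRG-1 it had 47.7, 50.0, 47.0, and 68.7 CPM, also all below CSS (log2 fold change −0.73). At 1 hour of EGF the values of 63.2 to 79.6 CPM overlapped with CSS.

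*ZNF462*, which encodes a chromatin-associated protein with 33 fingers found by the pattern, fell from 48.4 ± 7.58 CPM to 26.7 ± 3.28 CPM with EGF and 27.4 ± 5.85 CPM with NRG-1 (log2 fold changes −0.85 and −0.83). *ZNF736* fell by 0.83 and 0.73, and *ZNF618*, whose protein binds UHRF2, fell by 0.71 with NRG-1. Other large falls with EGF were those of *ZNF254* (−0.77), of the near copies *ZNF33A* and *ZNF33B* (−0.77 and −0.80), and of *ZNF204P* and *ZNF658B* (−0.92 and −0.90). Reads of such near copies and pseudogenes may be divided among them, so that their separate values are uncertain. Of the members with the highest levels, *ZNF358* was lower at 4 hours of EGF (log2 fold change −0.26, adjusted P = 0.0017 in edgeR), and *ZNF207*, *ZNF664*, *ZNF32*, and *ZNF511* did not pass the test (0.09, 0.08, −0.15, and 0.18).

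EGF and NRG-1 were compared directly, and each was also set against its own 5-minute libraries, so that the lists of changed members share no library. Both comparisons still came from 1 fit over all 32 libraries, with the same estimate of spread for each gene and the same batch term. The lists are therefore not independent. At 1 hour, 33 members were lower with both ligands, which is 48.5% of the 68 lower with EGF and 82.5% of the 40 lower with NRG-1. Of the members higher at 1 hour, 23 were shared, or 67.6% of 34 and 85.2% of 27. Over all genes tested, the shared part at 1 hour was 43.9% and 71.1% of the lower lists and 63.3% and 85.5% of the higher ones. At 4 hours 72 of the lower members were shared (73.5% of 98 and 81.8% of 88) and 50 of the higher ones (74.6% of 67 and 83.3% of 60). Over all genes these parts were 73.8% and 85.0% of the lower lists and 78.8% and 87.9% of the higher ones. All 40 members lower at 1 hour of NRG-1 had a negative change with EGF, and 62 of the 68 lower with EGF had one with NRG-1. Over all genes tested, 374 of 377 and 591 of 610 did so.

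**Figure D4:**
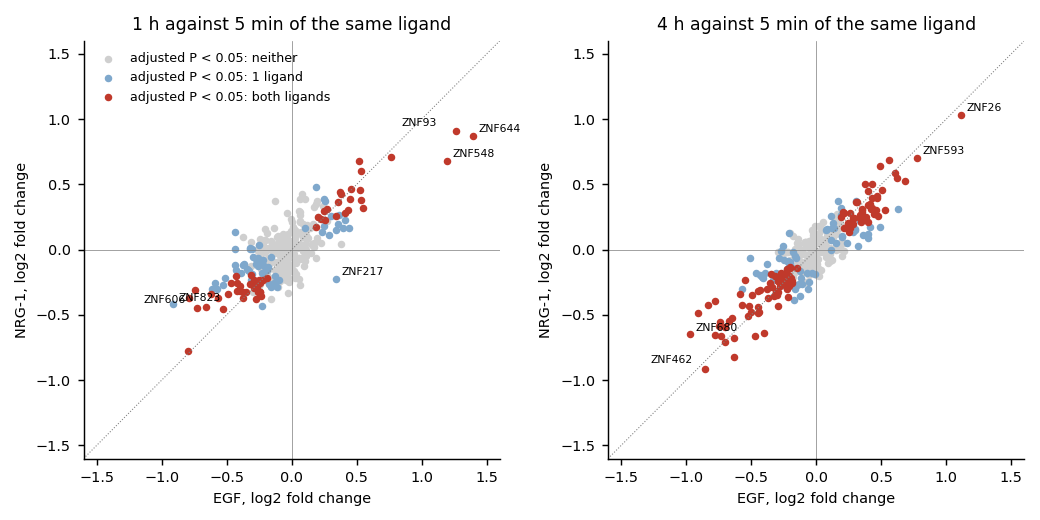
Log2 fold change of each of the 321 members at 1 hour (left) and 4 hours (right) against 5 minutes of the same ligand, EGF on the horizontal and NRG-1 on the vertical axis, colored by the adjusted P below 0.05 in neither, 1, or both comparisons; the dotted line marks equal change. At 1 hour *ZNF644* stands at 1.40 with EGF and 0.87 with NRG-1, *ZNF548* at 1.19 and 0.68, and *ZNF217* at 0.34 and −0.22.

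In the direct test at 1 hour, 3 members were higher with EGF than with NRG-1, where 0.941% of all genes were, and 5 were lower, where 0.118% of all genes were. With the replicate block the counts were 8 (1.89% of all genes) and 23 (0.918%), and on log2(TPM + 1) with limma 3 and 0. Batch 1 alone gave 5 and 0, and batch 2 alone gave none in either direction. *ZNF644* was higher with EGF by 0.54 (adjusted P = 5.11e-07 in edgeR), *ZNF548* by 0.52, and *ZNF217* by 0.54. *ZNF217* encodes an oncogenic factor that works with the CtBP and CoREST corepressors. It had 158, 161, 202, and 195 CPM in CSS, 206, 216, 264, and 251 CPM at 1 hour of EGF, and 149, 132, 187, and 177 CPM at 1 hour of NRG-1. Within each batch the EGF values were above CSS and the NRG-1 values below it, though the batches themselves differ. The change with EGF was 0.39 (SE 0.08, edgeR adjusted P = 0.0004), that with NRG-1 was −0.15 and did not pass (adjusted P = 0.31 in edgeR), and by 4 hours it was −0.52 with EGF and −0.35 with NRG-1.

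The 5 members lower with EGF than with NRG-1 at 1 hour were *ZNF564* (−0.35), *ZNF20* (−0.28), *ZNF616* (−0.27), *ZNF606* (−0.24), and *ZNF549* (−0.19). All 5 had a KRAB-like box, as did 190 of all 321 members and, among those higher with EGF, *ZNF548*. *ZNF564* had 11.3, 11.7, 10.8, and 12.4 CPM in CSS, 7.90, 6.75, 7.28, and 7.72 CPM with EGF, and 9.03, 9.93, 8.35, and 10.4 CPM with NRG-1. The 3 groups did not overlap, and the difference between ligands had an adjusted P of 0.021 in edgeR. That call was lost without EGF replicate 2 or 3 or NRG-1 replicate 2 or 4. Those of *ZNF20* and *ZNF616* were also lost on leaving out single libraries, among them NRG-1 replicate 4. At 4 hours, *ZNF248* was the only member that differed, lower with EGF by 0.32 (adjusted P = 0.0073 in edgeR), where 0.412% of all genes were lower and 1.25% higher. It was not called without NRG-1 replicate 4, and the replicate block called 14 members (3.28% of all genes higher and 1.48% lower).

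In FBS compared with CSS, 106 members (33.0%) were lower and 77 (24.0%) higher, where 26.8% of all genes were lower and 26% higher. Among genes with at least 5 TPM in CSS, 29.5% were lower and 32.6% higher. The counts differed by the KRAB-like box here as well, without a test between the lists: 55 of 121 members without it (45.5%) were lower in FBS and 18 (14.9%) higher, with a median of −0.15, whereas 51 of 190 KRAB-like members (26.8%) were lower and 56 (29.5%) higher, with a median of 0.03. The direction for KRAB-like members depends on the scale. On log2(TPM + 1) with limma their median was −0.15, with 83 lower and 26 higher, that of the others −0.32, with 67 lower and 10 higher, and the median of all genes −0.09. Over all members that scale gave 152 lower and 37 higher, where 35.8% of all genes were lower and 15.5% higher. In batch 1 alone the median of KRAB-like members was −0.01 and in batch 2 alone 0.07, while that of the others was −0.09 and −0.19.

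*ZNF367*, which has 2 fingers, was the member with the largest rise in FBS. It had 80.0, 69.4, 47.8, and 42.4 CPM in FBS and 20.5, 21.3, 14.3, and 14.6 CPM in CSS. FBS was above CSS in both batches without overlap (log2 fold change 1.74, SE 0.08, edgeR adjusted P = 3.33e-17). It was followed by *ZNF93* (1.22), *ZNF85* (1.07, from 9.88 ± 0.91 to 20.9 ± 3.07 CPM), and *ZNF718* (0.90).

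*ZNF703* had 9.03, 8.50, 7.38, and 6.71 CPM in FBS and 16.7, 16.0, 18.4, and 16.2 CPM in CSS. FBS lay below CSS without overlap (log2 fold change −1.09, SE 0.11), and with either ligand the gene moved the other way, to 24.0 to 28.2 CPM at 1 hour of EGF. *ZNF629* was lower by 1.08 and *ZNF827*, a gene whose protein recruits the NuRD complex to telomeres, by 1.07. *ZNF467* changed by −0.86. These were the members with the largest falls in FBS, where 8.71% of all genes and 4.54% of those with at least 5 TPM in CSS passed both limits and 3 members did so in each direction (*ZNF367*, *ZNF93*, and *ZNF85* higher, and *ZNF703*, *ZNF629*, and *ZNF827* lower).

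The remaining members of a list of better-studied proteins, beside *ZNF703*, *ZNF281*, *ZNF217*, and *ZNF207* above, had the following changes with EGF. *ZNF143*, an activator of small nuclear RNA genes, did not pass the test at 1 hour of EGF (0.0033) and was 0.14 higher at 4 hours (adjusted P = 0.048 in edgeR), a call lost without CSS replicate 2, 3, or 4 or EGF replicate 1 or 2. *ZNF24*, a SCAN-domain factor, had a change of −0.15 at 1 hour that did not pass (adjusted P = 0.09 in edgeR, and 0.029 with the replicate block) and changed by −0.38 at 4 hours (adjusted P = 1.3e-06 in edgeR). *ZNF148* did not pass at either time (−0.15 and 0.08). *ZNF331* was higher by 0.13 and 0.35, and its 1-hour call was lost without CSS replicate 1 or 3 or EGF replicate 2 or 3. *ZNF350*, which encodes a repressor that binds BRCA1, was lower by 0.30 at 1 hour and by 0.16 at 4 hours, the latter lost without CSS replicate 1 or 4 or EGF replicate 1, 3, or 4. *ZNF395* and *ZNF687* did not pass at 1 hour (0.03 and 0.01) and were 0.33 higher and 0.25 lower at 4 hours, the latter call lost without CSS replicate 2 or 3 or EGF replicate 1, 2, or 4.

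The *ZNF* genes below the TPM limit also had more lower than higher calls at 1 hour: 51 of 195 (26.2%) were lower and 9 (4.62%) higher with EGF, against CSS. The corepressors that KRAB proteins work with were counted in the same way. Of the 23 genes listed for TRIM28, its partners, heterochromatin proteins, and the NuRD complex, 2 (8.70%) were higher and 0 lower at 1 hour of either ligand, near the shares of all genes given above. The median change with EGF was 0.03. At 4 hours of EGF 5 (21.7%) were higher and 4 (17.4%) lower. The lowest was *ATF7IP*, a partner of the histone methyltransferase SETDB1, at −0.81 with EGF and −0.82 with NRG-1, and the highest was *CHD4*, the remodeling subunit of NuRD, at 0.69 and 0.59. In FBS 9 were higher and 7 lower, with *UHRF1*, which reads DNA methylation during replication, at 1.61.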

How the data were processed

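RNA of 32 LNCaP libraries was sequenced. Per the labels and the submitters' processing notes, reads were trimmed with Trimmomatic 0.36, aligned to hg19 with STAR 2.7.0f, and quantified with RSEM, and the authors deposited 1 table of expected counts and 1 of TPM per gene. Both were used as deposited, the expected counts rounded to whole numbers because 11.2% of the values were not whole.

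The 16995 genes that reached 5 counts in 3 or more libraries were tested by the quasi-likelihood method of edgeR 4.0.16 (R 4.3.3), with TMM library sizes and group plus batch as terms over all 32 libraries, with Benjamini-Hochberg adjustment over all genes tested. Members were called at an adjusted P below 0.05, and the stricter rule also asked for a log2 fold change beyond 1. CPM values use TMM library sizes. Alternatives were DESeq2 1.42.0, limma 3.58.1 on log2(TPM + 1) and log2(TPM + 0.1), other count filters, leaving the batch out of the model, a block for the replicate number, each batch alone, the 2 groups alone, other TPM limits, and leaving out each library.

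The members and lists were chosen with earlier results of these data known. Genes named are the 8 largest falls and rises at 4 hours of EGF and the 4 at each other comparison with CSS, among calls with 1 direction in every same-numbered pair, up to 3 each way between ligands, members called in opposite directions at 1 and 4 hours, the 5 highest TPM, the 3 on each side of the limit, and a list of known genes. *ZNF549*, which completes a count of 5, the motif holders *ZNF562* and *ZNF687*, and the genes at the ends of the 5-minute ranges were named after their values were seen.

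Fingers and KRAB-like boxes (at least 9 of 14 positions of the A box) were searched in GENCODE 44 canonical coding sequences, in place of RefSeq proteins, which were not used here. Some members counted as without the box came close, with 8 positions in *ZNF287* and *ZNF446*. Divergent KRAB boxes may therefore be among the members without it. Promoters are RefSeq's for GRCh38.p14, and no coordinates were carried over from hg19.

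Replicate numbers are shared by the groups. The correlation of deviations from group means was above 0.1 in 112 of 112 same-numbered pairs of libraries (0.13 to 0.57). Same-numbered libraries also share a batch, and the deviations kept the batch difference. The check alone therefore cannot tell a pairing by number from a shared batch. Within batch 2, the KRAB-like median was higher in replicate 4 than in replicate 3 of every group. At 1 hour of EGF these medians were −0.13 and −0.19. The order thus followed the replicate number there, among libraries of the same batch. In batch 1 the order of replicates 1 and 2 differed between groups. The main fit had no term for the replicate number. No 2 libraries agreed within sampling noise (chi-square per degree of freedom of at least 6.5 over 48 pairs). On counts simulated for EGF at 4 hours against CSS, the edgeR fit recovered 99 of 100 genes changed by a log2 fold of 1 and 100 of 100 changed by 2. There were 8 false calls among 16779 genes. Only changes of these sizes were simulated, and without a batch difference. Recovery of smaller changes, such as those of most members called, was not tested.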

Additional observations from a re-analysis of the deposited data

Results flagged for a closer look

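Single libraries stood apart from the other 3 of their group in 5 of the 93 groups tested over the named members, where about 1 in 20 is flagged by chance. At 4 hours of NRG-1, replicate 4 had 68.7 CPM of *ZNF680* against 47.0 to 50.0 in the others and 115 CPM of *ZNF542P* against 77.9 to 82.0. At 4 hours of EGF, replicate 4 had 21.8 CPM of *ZNF462* against 27.8 to 29.0, and replicate 3 had 80.4 CPM of *ZNF410* against at least 93.6. In CSS, replicate 4 had 8.85 CPM of *ZNF718* against 9.43 to 9.53.

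EGF and NRG-1 differed at 1 hour by the direct test in 8 members. The log2 difference (EGF minus NRG-1) was 0.54 for *ZNF644*, 0.54 for *ZNF217*, and 0.52 for *ZNF548*. It was −0.35 for *ZNF564*, −0.28 for *ZNF20*, −0.27 for *ZNF616*, −0.24 for *ZNF606*, and −0.19 for *ZNF549*. At 4 hours it was −0.32 for *ZNF248*.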

How the results depend on the processing

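Counts are given as higher and lower members, against CSS unless said, where they moved by more than 1.5 times. The share of all genes called also changed with the setting where it is given above. A moved count alone is therefore not a result about the members. Batch 2 alone gave 9 and 14 at 1 hour of EGF, 2 and 2 at 1 hour of NRG-1, 27 and 27 at 4 hours of EGF, 12 and 15 at 4 hours of NRG-1, and 36 and 36 in FBS. Against 5 minutes of the same ligand it gave 25 (EGF) and 8 (NRG-1) members at 1 hour, and 50 (EGF) and 27 (NRG-1) at 4 hours. Between 1 and 4 hours it gave 48 with EGF and 31 with NRG-1, and between ligands 0 at either time. At 1 hour 14 KRAB-like members were lower in it with EGF, and 2 were with NRG-1. Batch 2 alone has 2 libraries per group. Batch 1 alone gave 24 lower members and 18 lower KRAB-like members at 1 hour of NRG-1, and 5 and 0 members between ligands at 1 and 4 hours.

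With the replicate block, 57 members were higher and 77 lower at 1 hour of NRG-1, 60 of the latter KRAB-like, 128 differed from 5 minutes of NRG-1, and 31 and 14 differed between ligands at 1 and 4 hours. The block moved no other count of members by over 1.5 times. Without the batch term, 26 members and 23 KRAB-like members were lower at 1 hour of NRG-1, 44 differed from 5 minutes, and 5 differed between ligands at 1 hour. With only the 2 groups compared, 52 were higher at 1 hour of EGF and 28 lower at 1 hour of NRG-1, 66 and 26 differed from 5 minutes of EGF and NRG-1, and 2 and 0 differed between ligands at 1 and 4 hours.

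With limma on log2(TPM + 1), log2(TPM + 0.1), and log2(TPM + 1) over all genes, the lower members at 1 hour of EGF were 40, 40, and 44, and the lower KRAB-like ones 32, 32, and 35. Higher members were 15, 15, and 14 at 1 hour of NRG-1, 38, 38, and 36 at 4 hours of EGF, 21, 21, and 20 at 4 hours of NRG-1, and 37, 37, and 36 in FBS. The counts were 44, 43, and 44 for 1 hour against 5 minutes of NRG-1, 3, 3, and 4 between ligands at 1 hour, and 2, 2, and 2 at 4 hours. DESeq2 gave 7 members between ligands at 4 hours and a minimum of 10 counts in every library gave 2.

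A limit of 1 TPM gave 118 and 75 lower members at 1 hour of EGF and NRG-1, 159 against 5 minutes of EGF, and 13 and 4 between ligands at 1 and 4 hours. A limit of 10 TPM gave 30 and 18 lower at 1 hour of EGF and NRG-1, 46 higher and 60 lower at 4 hours of EGF, 35 and 53 at 4 hours of NRG-1, and 39 and 62 in FBS. It gave 51 and 36 against 5 minutes at 1 hour, 102 and 90 at 4 hours, 90 and 77 between 1 and 4 hours, and 4 between ligands at 1 hour. These limits change the number of members.

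Leaving out 1 library gave 3 to 8 members between ligands at 1 hour (5 without any 1 EGF library, 3 without NRG-1 replicate 4) and 0 to 2 at 4 hours (2 without EGF replicate 4 or NRG-1 replicate 1, 0 without NRG-1 replicate 4), and moved no other count by over 1.5 times. Changes near 0 at 1 hour of EGF turned sign for *ZNF143* (−0.0075 in batch 2 alone, and −0.0179 without CSS replicate 2 to 0.0232 without EGF replicate 3 on leaving out 1 library), for *ZNF395* (−0.0141 without EGF replicate 3 to 0.0707 without CSS replicate 3), and for *ZNF687* (−0.0211 without CSS replicate 4 to 0.0479 without CSS replicate 3). Over the values of the named genes under all alternatives, 1585 kept their direction and side of the threshold, 155 lost the call, and 12 gained it. Where a count moved, the cause was not tested.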

Other observations

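Other zinc finger families, taken with the same limit of 5 TPM in CSS, are given as counts beside the shares of genes called. Over all genes these were 6% higher and 3.51% lower at 1 hour of EGF, 24.6% higher and 24.6% lower at 4 hours, and 26% higher and 26.8% lower in FBS. Among genes with at least 5 TPM in CSS they were, in the same order, 7.39% and 3.57%, 28.5% and 24.8%, and 32.6% and 29.5%. Of 8 *KLF* genes, which encode GC-box factors with a short finger row, 5 were higher and 0 lower at 1 hour of EGF, with *KLF10* at 3.22 on the log2 scale, and at 4 hours 2 were higher and 4 lower, with *KLF15* at −1.45. The 17 *ZSCAN* and *ZKSCAN* symbols cover proteins with a SCAN domain for pairing and include the antisense transcript *ZSCAN16-AS1*. Of these 17, 0 were higher and 6 (35.3%) lower at 1 hour of EGF. At 4 hours 1 was higher and 12 (70.6%) lower (median −0.34), and in FBS 1 was higher and 9 lower.

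Of 34 *ZBTB* genes, taken by symbol and so including *ZBTB8OS*, 7 (20.6%) were higher and 7 (20.6%) lower at 1 hour of EGF. At 4 hours 7 (20.6%) were higher and 14 (41.2%) lower, with *ZBTB43* at −0.78 and *ZBTB2* at 1.09. Of 14 *ZFP* genes, 3 were higher and 4 lower at 1 hour of EGF. Their symbols mix C2H2 factors with the RNA-binding *ZFP36* genes, and *ZFP36* itself, whose protein speeds the decay of AU-rich messages, rose by 3.55 with EGF and 3.34 with NRG-1. No test was made between families.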
